A study of Mus musculus with 15 samples.

Results

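Heat shock proteins and DNAJ proteins of tumor-associated macrophages (TAMs) were taken from the expression table by their symbols. Every gene whose symbol begins with Hspa, Hspb, Hspd, Hspe or Hsph and a number, with Hsp90, or with Dnaja, Dnajb or Dnajc and a number was kept, and pseudogene symbols with -ps were left out. This gave 72 of the 55335 genes in the table, of which 27 are Hsp genes and 45 are Dnaj genes. They comprise 14 genes of the HSP70 and HSP110 family, 3 HSP90 genes, 8 small heat shock proteins, 2 genes of the mitochondrial chaperonin, and 4 DNAJA, 13 DNAJB and 28 DNAJC genes. The rule uses symbols and no measured value.

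HSP70 proteins bind unfolded stretches of other proteins and release them in a cycle driven by ATP. J proteins, encoded by the Dnaj genes, deliver clients and trigger ATP hydrolysis, nucleotide exchange factors such as the HSP110 and BAG proteins restart the cycle, and HSP90 finishes the folding of kinases and receptors. Each compartment has its own set. The set of the cytosol is induced by heat shock factor 1 on heat and oxidative stress, and that of the endoplasmic reticulum (ER) by the unfolded protein response, through which macrophages adjust folding capacity to the load of secreted and surface proteins.

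TAMs were sorted for RNA-seq from tumors that grew in the liver of C57BL/6 mice after injection of Hepa1-6, a mouse hepatoma line. With 5 samples each, the 3 groups were control HCC, miR-144 overexpression in HCC and miR-451a overexpression in HCC, and the comparison asks whether TAMs change when the tumor cells carry more of either miRNA. In the study's methods the Hepa1-6 cells also carried luciferase from a lentivirus, the miRNA was raised in the tumor cells and not in the TAMs, and the ages of the mice are not given in the sources used here. Nothing in the labels says that the 5 samples of a group came from separate mice, so the p-values measure only the spread between these samples. The study's legend gives fewer samples a group for this experiment than were deposited, and all of those deposited were used here.

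The sequences of the overexpressed miRNAs define the groups. Both lie on the plus strand of chromosome 11, miR-144-5p at chr11:78073010-78073032, miR-144-3p at chr11:78073047-78073066 and miR-451a at chr11:78073186-78073207 (RefSeq, GRCm38.p6). Capitals mark the seed, bases 2 to 8, and no seed is shared.
mmu-miR-144-5p: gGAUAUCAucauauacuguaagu
mmu-miR-144-3p: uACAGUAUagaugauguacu
mmu-miR-451a: aAACCGUUaccauuacugaguu

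Promoter sequences of RefSeq (250 bases before to 50 after a start, GRCm38.p6) were at hand for 58 of the 72 genes. They were searched on both strands for the ER stress element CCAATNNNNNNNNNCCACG, which is known to bind NF-Y and ATF6, for the ER stress element II ATTGGNCCACG, and for a heat shock element of 3 units, GAANNTTCNNGAA. None of the 3 motifs contains another, although ATTGG is the reverse complement of CCAAT. The ER stress element was in 0.119% of all 32851 promoters of that length, and among the chaperones it was in those of Hspa5, Hsp90b1 and Dnajc3. The stretches are shown because these genes belong to the group described first below, with the letters of the motif in capitals. They lie at chr2:34772020-34772048 on the plus strand (Hspa5), at chr10:86705633-86705661 and chr10:86705528-86705556 on the minus strand (Hsp90b1, the nearer match reading in the opposite direction), and at chr14:118937822-118937850 on the plus strand (Dnajc3).
Hspa5: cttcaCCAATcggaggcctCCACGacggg
Hsp90b1, far match: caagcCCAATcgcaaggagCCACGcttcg
Hsp90b1, near match: gagtgCGTGGtgaggcacgATTGGtgagt
Dnajc3: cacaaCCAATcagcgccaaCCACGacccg
Counted from the start, the matches begin at -65, -212, -107 and -105. The ER stress element II was in 0.0365% of promoters and in that of Dnajb11, where it begins at 8 after the start. The heat shock element was in 0.603% of promoters, and among the chaperones in those of Dnajb6, Hsph1, Hspd1 and Hspe1. Only exact matches were counted, and promoters were missing for some genes, so a gene not named here may still carry an element. Hspd1 and Hspe1 are neighbours that are transcribed away from each other, and their match, at chr1:55088054-55088081 on the strand of Hspe1, is a single stretch that fits the motif on both strands.
Hspe1 and Hspd1: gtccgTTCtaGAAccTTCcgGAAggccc

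Values are FPKM (fragments per kilobase of transcript, scaled to the mapped fragments of the sample), as deposited. Depth read from the steps of low values was about 23.6 to 27.7 M fragments in the control samples, 17.9 to 27.2 in the miR-144 samples and 15.5 to 30.3 in the miR-451a samples. Differences were tested with limma on log2(FPKM + 1) in the 11419 genes that averaged 1 FPKM or more, and genes with a Benjamini-Hochberg adjusted p under 0.05 are called higher or lower. Both comparisons with control use the same control samples. The macrophage label was borne out by its markers (Adgre1, Itgam, Csf1r, Cd68, Lyz2, Mertk, C1qa and C1qb), which summed to at least 10240 FPKM in every sample, while 7 of 9 hepatocyte and hepatoma markers were listed at 0 throughout and the 9 summed to at most 0.269 FPKM.

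Of the 72 chaperone genes, 55 passed the filter. The most abundant were Hsp90ab1 (241 ± 4.57 FPKM in control TAMs, SD, n = 5), Hspa8 (222 ± 25.8), Hsp90b1 (218 ± 5.58) and Hspa5 (213 ± 4.63). These 4 ranked 134, 145, 149 and 151 among all genes in control TAMs. Hsp90ab1 and Hspa8 are the constitutive HSP90 and HSP70 of the cytosol, and Hsp90b1 and Hspa5 their counterparts in the ER. Of the 50-base stretches of Hspa8, 51.4% also occur in other genes, most often in Gm15459 (89.7 FPKM), and the sum of both was 312, 333 and 321.5 FPKM in control, miR-144 and miR-451a TAMs, so its level relative to the other 3 genes is uncertain. In miR-144 TAMs Hspa8 (236 FPKM) and Hsp90ab1 (227 FPKM) ranked 119 and 123, whereas Hspa5 (128 FPKM) and Hsp90b1 (127 FPKM) ranked 252 and 257. In miR-451a TAMs the same genes ranked 123 and 122, and 265 and 259. The next most abundant, Hspa9, Hspd1, Dnajb11 and Hsp90aa1, lay between 41.6 and 46.2 FPKM in control TAMs. The 72 genes summed to 1476 to 1510 FPKM in the control samples, 1238 to 1301 in the miR-144 samples and 1200 to 1337 in the miR-451a samples.

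In TAMs from miR-144 tumors, 42 of the 55 genes were called (76.4%, against 67.2% of all genes tested), 20 of them higher (36.4% against 47.1%) and 22 lower (40.0% against 20.1%). In TAMs from miR-451a tumors, 39 were called (70.9% against 68.3%), 17 higher (30.9% against 48.1%) and 22 lower (40.0% against 20.3%). The samples did not overlap with control for 29 genes (52.7%, against 53.9% of all genes) and for 31 genes (56.4% against 55.2%). Lower calls therefore took a larger share of the chaperones than of all genes, and higher calls a smaller one. The higher calls of both comparisons include Hspb11, which at a control mean under 1 FPKM passed the filter only through the miRNA groups. The median log2 difference of the 55 genes was -0.04 for miR-144 and 0.02 for miR-451a, while that of all genes tested was 0.13 and 0.14. With each sample centred on its median, the miR-144 comparison had 9 chaperones higher and 30 lower, and the miR-451a comparison 9 and 27. Over all 11419 genes the centred values gave 3512 higher and 3511 lower, and 3577 and 3636. FPKM is relative to all RNA of a sample, and in bulk samples fewer cells of a type and less RNA per cell cannot be told apart.

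**Figure D1:**
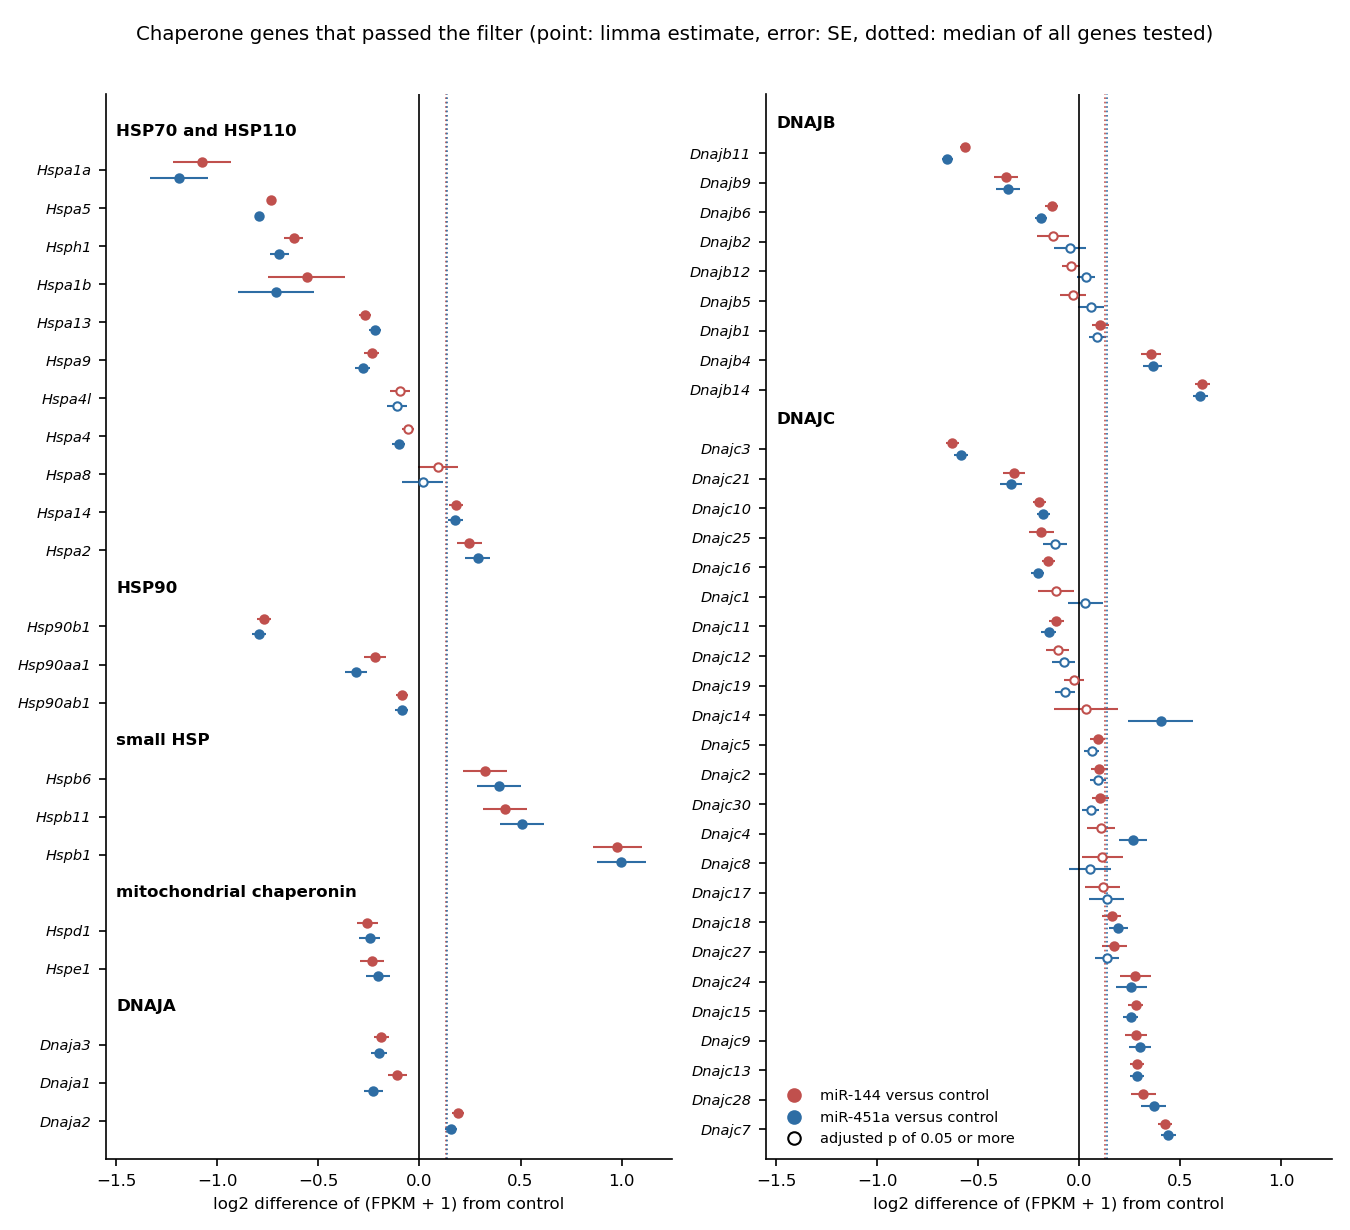
Log2 difference of (FPKM + 1) from control for the 55 genes that passed the filter, by family, with red points for miR-144 and blue for miR-451a, bars for the SE, open points for an adjusted p of 0.05 or more and dotted lines for the median of all genes tested (0.13 and 0.14). Hspa1a, Hspa5 and Hsp90b1 lie farthest to the left and Hspb1 farthest to the right in both comparisons. Hspb11 passed the filter only through the miRNA groups.

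The clearest group was that of the ER lumen. All 7 of its chaperones fell in both comparisons, beside lower calls for 20.1% and 20.3% of all genes. Their median log2 difference was -0.56 for miR-144 and -0.59 for miR-451a. Of the 7, 7 were also lower after median centring, after quantile normalization and on the TPM scale. Their levels summed to 539 to 566 FPKM in the control samples, 336 to 347 in the miR-144 samples and 321 to 342 in the miR-451a samples. Without these 7 genes, 48 chaperones remained. Higher and lower calls among them, Hspb11 included, numbered 20 and 15 with miR-144, and 17 and 15 with miR-451a. That is 41.7% and 31.2%, and 35.4% and 31.2%, of the 48, beside the shares of all genes given above. After median centring, where higher and lower calls were about equally many over all genes, the counts were 9 and 23, and 9 and 20.

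Hspa5 (BiP, chr2:34771970-34777547, plus strand, GENCODE M21 on GRCm38) is the HSP70 of the ER and the sensor partner of the unfolded protein response. It was at 214, 221, 209, 211 and 212 FPKM in control samples 1 to 5, at 130, 127, 127, 127 and 129 FPKM in the miR-144 samples, and at 124, 121, 122, 126 and 121 FPKM in the miR-451a samples. Every control sample lay far above every other sample, and the spread within groups was among the smallest of all chaperones. Hspa5 fell by 40.0% for miR-144 (log2 difference -0.73 ± 0.02, SE, adjusted p = 6.40e-13) and by 42.4% for miR-451a (-0.79 ± 0.02, adjusted p = 2.44e-13).

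Hsp90b1 (GRP94, chr10:86690209-86705509, minus strand) is the HSP90 of the ER, which folds Toll-like receptors and integrins. Its levels were 213, 223, 221, 221 and 210 FPKM in control TAMs, 125, 124, 134, 127 and 127 FPKM in miR-144 TAMs, and 128, 121, 126, 132 and 118 FPKM in miR-451a TAMs. The groups were again separate from control, and Hsp90b1 fell by 41.5% (log2 difference -0.77 ± 0.03, adjusted p = 3.52e-11) and by 42.5% (-0.79 ± 0.03, adjusted p = 2.29e-11).

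The J proteins of the ER lumen fell as well. Dnajb11 (ERdj3, chr16:22857845-22879634, plus strand), which hands clients to BiP, was at 41.3, 43.7, 41.9, 43.2 and 43.6 FPKM in control TAMs, at 28.7, 29.6, 27.7, 27.8 and 29.1 FPKM in miR-144 TAMs, and at 27.2, 26.6, 26.9, 26.4 and 26.9 FPKM in miR-451a TAMs. Dnajc3 (p58IPK, chr14:118937976-118981697, plus strand), a co-chaperone known as an inhibitor of the kinase PERK, was at 32.9, 34.3, 32.6, 35.7 and 32.6 FPKM, at 21.2, 21.2, 22.5, 20.8 and 21.3 FPKM, and at 23.2, 21.4, 22.3, 22.1 and 21.2 FPKM. For both genes no miRNA sample reached a control sample. Dnajb11 fell by 33.1% and fell by 37.3% (log2 difference -0.56 ± 0.03 and -0.65 ± 0.03, adjusted p = 5.02e-11 and 8.36e-12), and Dnajc3 fell by 36.3% and fell by 34.4% (-0.63 ± 0.03 and -0.59 ± 0.03, adjusted p = 3.27e-10 and 6.93e-10).

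The other 3 members of the ER lumen fell by less. Dnajb9 (ERdj4), a J protein that targets misfolded clients for degradation, had means of 16.0, 12.3 and 12.3 FPKM in control, miR-144 and miR-451a TAMs (log2 difference -0.36 ± 0.06 and -0.35 ± 0.06). Dnajc10 (ERdj5), which reduces disulfide bonds, had means of 20.5, 17.8 and 18.0 FPKM (-0.20 ± 0.03 and -0.18 ± 0.03). Hspa13, an ER HSP70 without a substrate-binding domain, had means of 6.04, 4.83 and 5.04 FPKM (-0.27 ± 0.03 and -0.22 ± 0.03). None of the 3 overlapped with control, and their adjusted p ranged from 1.16e-06 to 2.16e-04.

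**Figure D2:**
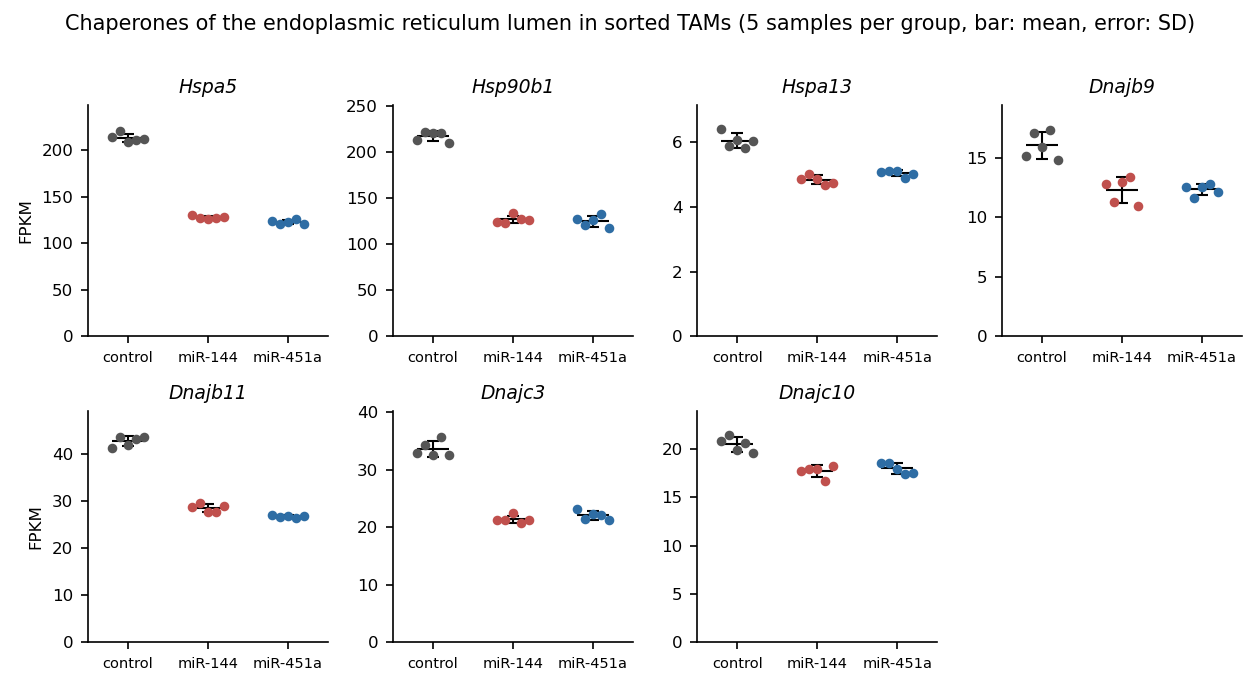
FPKM of the 7 chaperones of the ER lumen in each of the 5 control, 5 miR-144 and 5 miR-451a samples, with the mean and SD as bars. In each panel all control samples lie above all samples of both miRNA groups, by the widest margin for Hspa5 and Hsp90b1.

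Markers of several other cell types moved with the groups as well. The macrophage markers, of which Lyz2 made up most, summed to 10240 to 11140 FPKM in the control samples, 18090 to 19670 in the miR-144 samples and 17940 to 18810 in the miR-451a samples, but Cd68 of that list fell (1444, 919 and 910 FPKM), and of 2 entries for Itgam 1 was not called. The neutrophil list summed to 64.9 to 79.2, 46.3 to 52.2 and 44.1 to 53.2 FPKM, almost all of it Csf3r, while Retnlg of that list was at 0 throughout. The fibroblast and stellate list summed to 106 to 131, 141 to 209 and 180 to 231 FPKM, and the Kupffer list to 3.30 to 3.75, 17.0 to 49.9 and 15.7 to 47.0 FPKM with Clec4f at 0. The monocyte list summed to 2.38 to 3.74, 6.96 to 12.0 and 6.56 to 11.0 FPKM, and the B cell list, mostly Cd79b, to 0.138 to 0.375, 1.11 to 1.45 and 1.17 to 1.73 FPKM. The endothelial list summed to 3.70 to 4.29, 4.67 to 5.02 and 4.66 to 5.93 FPKM. The dendritic cell and NK cell lists stayed under 1 FPKM in every sample, the first higher and the second lower in the miRNA samples than in control. The T cell list (0.0401 to 0.271, 0.0657 to 0.3825 and 0.0592 to 0.490 FPKM) and the erythroid list (at most 0.0926 FPKM) overlapped between groups. The cycling list summed to 12.15 to 13.83, 9.72 to 11.89 and 10.83 to 14.37 FPKM, so only its miR-144 samples were separate from control. Mitochondrial genes took 7.29% to 7.89% of all FPKM in the control samples and 6.18% to 7.12% in the miRNA samples, and the 10 most abundant genes 18.9% to 19.8% and 16.3% to 17.4%, in each case without overlap. The part of these measures in the differences of the chaperones was not tested.

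Partners of the ER chaperones were described from a list of 19 genes of the unfolded protein response and ER folding. For either miRNA 14 of the 19 were lower, 2 were higher and 3 did not pass the test (73.7% lower, against 20.1% and 20.3% of all genes), with median log2 differences of -0.49 and -0.54. The disulfide isomerase Pdia4 had means of 146, 41.4 and 42.3 FPKM (log2 difference -1.79 and -1.76), and Sdf2l1, which binds Dnajb11, had means of 105, 41.1 and 38.5 FPKM (-1.33 and -1.42). Calr, the lectin chaperone calreticulin, had means of 516, 238 and 224 FPKM (-1.12 and -1.20), above every heat shock protein in control TAMs. Among the sensors of the pathway, Atf6 rose (16.0, 23.1 and 23.1 FPKM), Ern1 rose (10.9, 12.6 and 12.4 FPKM) but was not called after median centring, and Eif2ak3 was at 7.90, 8.09 and 8.06 FPKM with an adjusted p of 0.411 and 0.499. Xbp1, the transcription factor that Ern1 activates by splicing, was at 27.6, 25.9 and 26.6 FPKM, with an adjusted p of 0.149 and 0.376, and both Xbp1 and Eif2ak3 were called lower in each comparison after median centring. Gene-level FPKM does not show splicing.

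The nucleotide exchange factors of BiP fell too. Hyou1 (GRP170) had means of 26.4, 12.5 and 12.2 FPKM (log2 difference -1.02 and -1.05), and Sil1 of 8.10, 6.01 and 6.13 FPKM (-0.38 and -0.35). The translocon partner Sec63, an ER membrane J protein by its domain, had means of 12.4, 10.03 and 9.97 FPKM (-0.28 and -0.29). Of J proteins in the ER membrane the list held 3, Dnajb12, Dnajb14 and Dnajc1, and none of these was called lower as deposited, while Dnajc16, another ER membrane J protein outside the list, was lower (8.74, 7.76 and 7.45 FPKM). Dnajb14, which serves degradation of ER membrane proteins, rose from 5.38, 5.28, 5.55, 5.56 and 5.33 FPKM in control TAMs to 8.70, 8.47, 9.32, 9.23 and 8.26 FPKM for miR-144 and 8.38, 8.96, 8.87, 9.18 and 8.25 FPKM for miR-451a. It was higher in every miRNA sample than in any control sample (log2 difference 0.61 ± 0.04 and 0.60 ± 0.04, adjusted p = 1.57e-09 and 1.80e-09). Its relative Dnajb12 had means of 14.4, 14.0 and 14.8 FPKM and Dnajc1 of 3.58, 3.27 and 3.68 FPKM, with adjusted p between 0.259 and 0.776, and after median centring or quantile normalization both were lower for miR-144, while for miR-451a Dnajb12 was lower after median centring and higher on the TPM scale.

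The motifs shown above were set against the calls of all genes. Of the 8101 genes tested that have a promoter in the table, 20.3% were lower for miR-144 and 20.4% for miR-451a. Of the 13 with an ER stress element, 9 were lower in each comparison (69.2%) and 3 higher. Hspa5, Hsp90b1 and Dnajc3 are among these 9, as are Calr, Canx, Creld2 and Pdia6 of the partner list. Most of the 9 thus come from the lists described above, so the 69.2% restates their falls and is no separate support. Of the 46 genes with the heat shock element, 9 were lower in each comparison (19.6%) and 24 and 27 were higher (52.2% and 58.7%, against 49.2% and 50.3%). Of the 7 with an ER stress element II, 4 were lower and 1 higher for miR-144 (57.1% lower), and 3 were lower and 2 higher for miR-451a (42.9% lower). These counts describe letters in a window and are not evidence of binding.

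In the cytosol, stress-inducible members of the HSP70 and HSP110 family fell. Hspa1a, the main inducible HSP70 (chr17:34969190-34972156, minus strand) was at 9.19, 8.41, 5.98, 5.61 and 9.02 FPKM in control TAMs, at 3.93, 3.07, 2.46, 2.45 and 3.49 FPKM in miR-144 TAMs, and at 3.05, 2.28, 2.55, 2.35 and 3.56 FPKM in miR-451a TAMs. The control samples were spread over a wide range but all lay above the rest. Hspa1a fell by 59.7% (log2 difference -1.07 ± 0.14, adjusted p = 9.48e-06) and fell by 63.9% (-1.19 ± 0.14, adjusted p = 3.04e-06), the only one of the 55 HSP and DNAJ genes tested to change by more than 1 on the log2 scale in either comparison.

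Its neighbour Hspa1b (chr17:34956436-34959238, minus strand) encodes a nearly identical protein. It was at 13.2, 10.8, 8.30, 7.09 and 14.0 FPKM in control TAMs, at 9.23, 7.11, 5.10, 5.04 and 7.93 FPKM in miR-144 TAMs, and at 7.14, 5.05, 5.36, 5.0 and 7.57 FPKM in miR-451a TAMs. Control samples 3 and 4 lay below the highest miR-144 sample, and control sample 4 also below the highest miR-451a samples, and the differences were -0.56 ± 0.19 (adjusted p = 0.0174) and -0.71 ± 0.19 (adjusted p = 0.00389). Of the 50-base stretches of Hspa1a, 60.3% also occur in other genes, so the division of reads between both genes is uncertain. Their sum was 18.3 ± 4.66, 9.96 ± 2.46 and 8.78 ± 1.76 FPKM (SD, n = 5), with a control range of 12.7 to 23.0 that overlaps with the miR-144 range of 7.48 to 13.2 and lies above the miR-451a range of 7.34 to 11.1.

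Hsph1 (HSP105, chr5:149614287-149636376, minus strand), an inducible HSP110 that exchanges nucleotide on HSP70, shares no such stretch with other genes. It was at 8.24, 8.15, 8.19, 8.98 and 8.68 FPKM in control TAMs, at 5.61, 5.07, 5.16, 4.51 and 5.40 FPKM in miR-144 TAMs, and at 4.77, 4.68, 4.79, 5.18 and 4.80 FPKM in miR-451a TAMs. The groups were separate from control, and Hsph1 fell by 39.1% (log2 difference -0.62 ± 0.05, adjusted p = 1.34e-08) and by 42.7% (-0.69 ± 0.05, adjusted p = 3.57e-09). Bag3, a stress-inducible exchange factor outside the DNAJ and HSP symbols, had means of 31.3, 14.4 and 14.2 FPKM (log2 difference -1.07 and -1.09).

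The constitutive HSP70 of the cytosol did not follow. Hspa8 was at 243, 190, 240, 239 and 198 FPKM in control TAMs, at 214, 240, 275, 217 and 237 FPKM in miR-144 TAMs, and at 211, 207, 214, 284 and 210 FPKM in miR-451a TAMs. The 3 groups overlapped throughout (log2 difference 0.09 ± 0.10 and 0.02 ± 0.10, adjusted p = 0.436 and 0.898), although both estimates were negative after median centring and the miR-144 estimate was called higher after quantile normalization. Its HSP110 partners Hspa4 and Hspa4l changed little. Hspa4 had means of 31.6, 30.3 and 29.4 FPKM (adjusted p = 0.124 and 0.00968), and Hspa4l of 3.76, 3.46 and 3.42 FPKM (adjusted p = 0.0923 and 0.0573), and both were called lower in each comparison after median centring, while on the TPM scale the miR-451a call of Hspa4 was lost (-0.02, adjusted p = 0.563). Hspa2 and Hspa14, the latter a ribosome-bound HSP70, were higher in both comparisons by 0.18 to 0.29 on the log2 scale, but neither was called after median centring or quantile normalization.

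Within the list of 12 heat shock response genes the directions were mixed. With miR-144, 8 were lower, 2 (Dnajb1 and Hspb1) higher and 2 without a call, and with miR-451a 8 were lower, 1 (Hspb1) higher and 3 without a call, which is 66.7% lower in each, against 20.1% and 20.3% of all genes. The medians were -0.16 and -0.22. Dnajb1 (HSP40), the main stress-inducible J protein of the cytosol, was at 10.7, 10.4, 10.3, 9.95 and 10.5 FPKM in control TAMs, at 11.7, 11.0, 11.4, 10.7 and 11.2 FPKM in miR-144 TAMs, and at 10.6, 10.02, 11.99, 11.7 and 11.1 FPKM in miR-451a TAMs. The lowest miR-144 sample and the highest control sample met, and the difference of 0.10 ± 0.04 (adjusted p = 0.0413) was lost without any one of 8 of the 10 samples and turned to -0.03 after median centring. For miR-451a it was 0.09 ± 0.04 (adjusted p = 0.0737), but 0.18 on the TPM scale (adjusted p = 0.00181), and it was also called without miR-451a replicate 2 (adjusted p = 0.0107). The transcription factor Hsf1 had means of 2.33, 2.63 and 2.90 FPKM. Of the list of 4 heat shock factors and binding proteins 1 was higher and 3 did not pass for miR-144. For miR-451a Hsf1 and Hsf2 were higher and Hsbp1 was lower. Higher calls were 25% and 50% of the list, against 47.1% and 48.1% of all genes. Lower calls were 0% and 25%, against 20.1% and 20.3%. After median centring no factor was called higher.

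Immediate early genes, which are known to respond within minutes to stress and to tissue dissociation, went both ways. The 15 genes of the list summed to 583 to 624 FPKM in the control samples, 353 to 382 in the miR-144 samples and 349 to 388 in the miR-451a samples. Atf3 (222, 67.7 and 60.7 FPKM), Ier3 (81.2, 23.0 and 24.05 FPKM), Jun (77.7, 45.1 and 46.4 FPKM) and Fos (12.0, 7.12 and 7.05 FPKM) fell, whereas Klf6, Btg2, Ier2 and Socs3 rose in both comparisons. Nr4a1 (0.230, 1.36 and 1.56 FPKM) passed the filter only through the miRNA groups. Of the 14 tested, Nr4a1 among them, 5 were higher in each comparison (35.7%, against 47.1% and 48.1% of all genes), and 6 with miR-144 and 7 with miR-451a were lower (42.9% and 50%, against 20.1% and 20.3%). Atf3 and Ier3 made up most of the fall of the sum. Their part in the fall of the inducible chaperones was not tested.

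**Figure D3:**
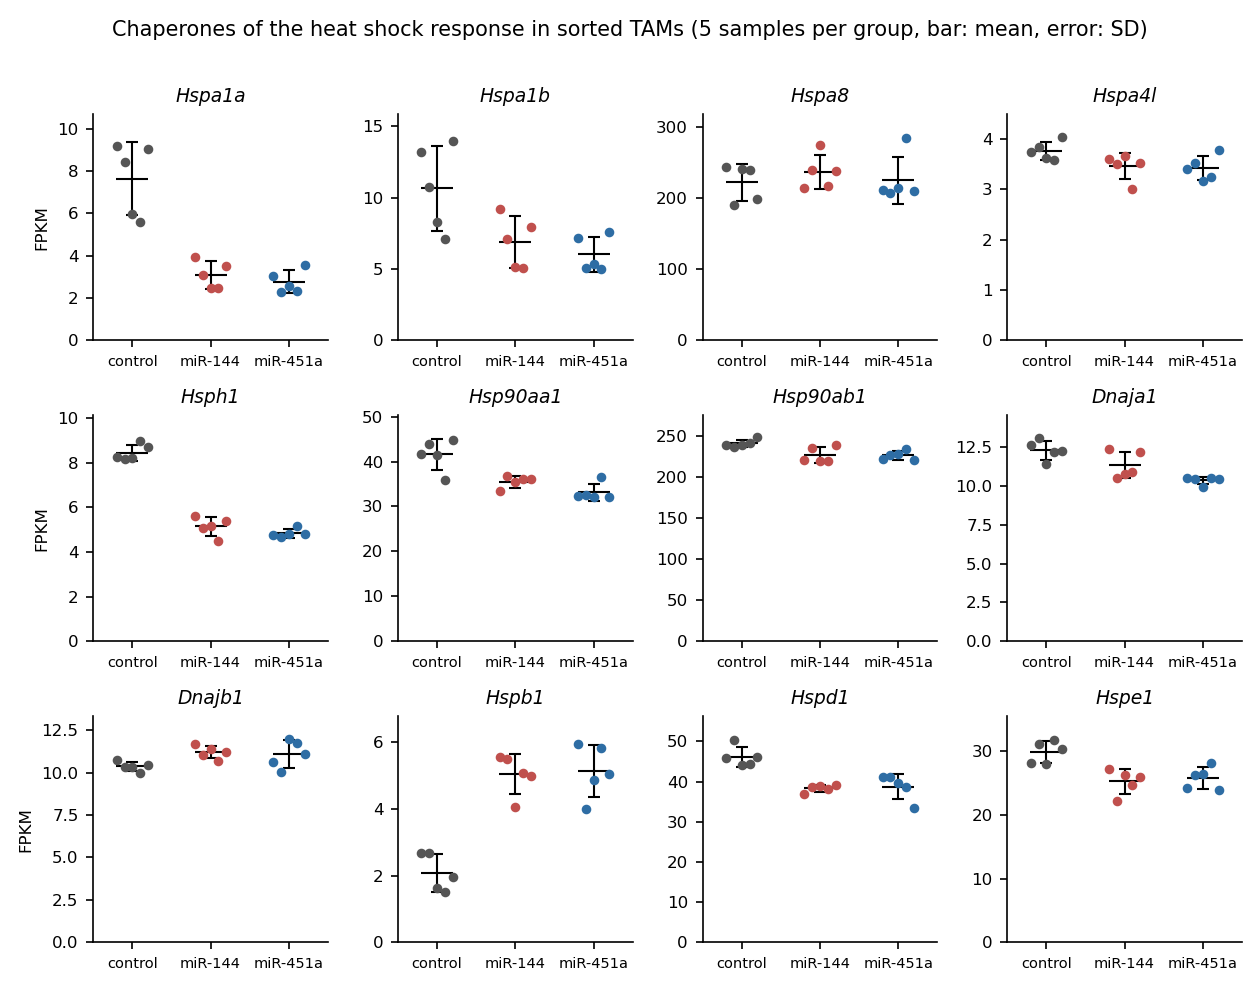
FPKM of the 12 genes of the heat shock response list in each of the 5 control, 5 miR-144 and 5 miR-451a samples, with the mean and SD as bars. Hspa1a and Hsph1 are lower and Hspb1 is higher in every miRNA sample than in any control sample, while the groups overlap for Hspa8 and Dnajb1.

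All 3 HSP90 genes, with Hsp90b1 of the ER among them, were lower in both comparisons, beside 20.1% and 20.3% of all genes. The amounts were very different, and Hsp90ab1 changed direction with the scaling. Hsp90ab1, the constitutive cytosolic HSP90, was at 239, 237, 238, 241 and 248 FPKM in control TAMs, at 221, 235, 219, 220 and 238 FPKM in miR-144 TAMs, and at 222, 227, 228, 234 and 220 FPKM in miR-451a TAMs. Its difference of -0.09 ± 0.03 in each comparison (adjusted p = 0.0204 and 0.0182) became 0.16 and 0.14 after quantile normalization and was not called after rescaling to TPM. Hsp90aa1, the inducible form, was at 41.7, 43.8, 41.5, 36.0 and 44.9 FPKM in control TAMs, at 33.4, 36.9, 35.3, 36.0 and 36.0 FPKM in miR-144 TAMs, and at 32.4, 32.6, 32.2, 36.6 and 32.1 FPKM in miR-451a TAMs. Control sample 4 lay among the miRNA samples, and the differences were -0.22 ± 0.05 and -0.32 ± 0.05 (adjusted p = 0.00238 and 1.03e-04). Much of Hsp90aa1 is shared with other genes (58.5% of its 50-base stretches, most often with Gm12346), and with that gene added the means were 49.4, 42.5 and 39.3 FPKM.

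Ratios within a sample do not change when a sample is multiplied by a single factor, though they do under quantile normalization, and they set both compartments side by side. The ratio of Hspa5 to Hspa8 was 0.973 ± 0.135 in control TAMs, 0.546 ± 0.057 in miR-144 TAMs and 0.553 ± 0.063 in miR-451a TAMs (SD, n = 5). That of Hsp90b1 to Hsp90ab1 was 0.904 ± 0.037, 0.562 ± 0.035 and 0.552 ± 0.019. For both ratios every control sample lay above every miRNA sample, with control ranges of 0.870 to 1.16 and 0.846 to 0.940. The ratio of Hspd1 to Hspe1, which form 1 mitochondrial complex, was 1.55, 1.53 and 1.51. The shared sequence of Hspa8 bears on the first ratio. The ratios were chosen after the values of these genes were seen and were not tested.

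**Figure D4:**
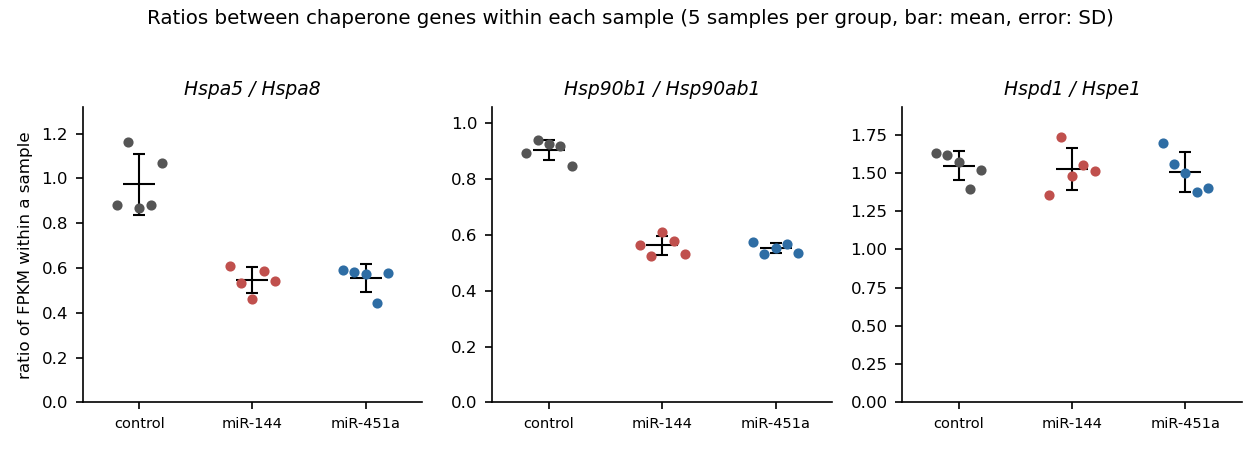
Ratio of FPKM between a pair of chaperone genes in each of the 5 control, 5 miR-144 and 5 miR-451a samples, with the mean and SD as bars. Hspa5 to Hspa8 and Hsp90b1 to Hsp90ab1 drop from near 0.973 and 0.904 in control TAMs to between 0.546 and 0.562 in the miRNA groups, whereas Hspd1 to Hspe1 stays at 1.51 to 1.55.

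Of the 8 mitochondrial genes 5 were lower in each comparison (62.5%, against 20.1% and 20.3% of all genes), among them Dnajc11, which was not called on the TPM scale. Dnajc15 was higher in each, though not called for miR-451a after quantile normalization, and Dnajc19 did not pass the test but was lower in both comparisons after median centring or quantile normalization, while Dnajc30 was called higher for miR-144 only and was not called after median centring. Hspa9 (mortalin), the HSP70 of the matrix, was at 45.7, 47.8, 44.4, 47.4 and 45.9 FPKM in control TAMs, at 41.0, 39.9, 38.2, 38.2 and 38.1 FPKM in miR-144 TAMs, and at 37.7, 36.9, 37.6, 41.1 and 36.1 FPKM in miR-451a TAMs. No miRNA sample reached a control sample (log2 difference -0.24 ± 0.04 and -0.28 ± 0.04, adjusted p = 3.76e-05 and 6.11e-06). Hspd1 (HSP60) had means of 46.1 ± 2.49, 38.4 ± 0.904 and 38.8 ± 3.17 FPKM, and its co-chaperonin Hspe1 (HSP10) of 29.8 ± 1.69, 25.2 ± 1.95 and 25.8 ± 1.77 FPKM. Their differences lay between -0.20 and -0.26 (adjusted p = 4.30e-04 to 0.00584), and the miR-451a samples of Hspe1 just overlapped with control. The J protein Dnaja3 had means of 9.38, 8.10 and 8.04 FPKM (-0.19 and -0.20), and the exchange factor Grpel1, which serves Hspa9, fell further, from 15.1 to 9.04 and 8.37 FPKM (-0.69 and -0.78).

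Of the 8 small heat shock proteins, which hold unfolded proteins without ATP, 3 passed the filter, and Hspb11, at a control mean under 1 FPKM, passed only through its higher level in the miRNA groups, so its call carries no weight. Hspb1 and Hspb6 were called higher in both comparisons as deposited, whereas Hspb6 was not called after median centring or quantile normalization. Hspb1 (HSP25, chr5:135887919-135889563, plus strand) was at 2.69, 2.68, 1.63, 1.50 and 1.95 FPKM in control TAMs, at 5.55, 5.51, 4.05, 5.09 and 5.0 FPKM in miR-144 TAMs, and at 5.94, 4.01, 4.87, 5.83 and 5.06 FPKM in miR-451a TAMs. Every miRNA sample was above every control sample, and the mean rose 2.41-fold and 2.46-fold (log2 difference 0.98 ± 0.12 and 1.0 ± 0.12, adjusted p = 4.23e-06 and 3.24e-06). Part of its sequence is shared with Hsp25-ps1 (51.6% of 50-base stretches), and the sum of both genes had means of 2.37, 5.90 and 6.08 FPKM.

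Hspb11 (IFT25), which despite its name is a subunit of the intraflagellar transport machinery, was at 0.581, 1.24, 0.985, 1.03 and 0.971 FPKM in control TAMs, at 1.68, 1.82, 1.80, 1.52 and 1.28 FPKM in miR-144 TAMs, and at 1.14, 2.07, 2.04, 2.05 and 1.68 FPKM in miR-451a TAMs. The miR-144 samples lay above control, and a single miR-451a sample fell inside the control range. Hspb6 (HSP20), known from muscle, had means of 2.49, 3.39 and 3.58 FPKM (0.33 ± 0.11 and 0.39 ± 0.11, adjusted p = 0.0158 and 0.0048). At these low levels the log2(FPKM + 1) scale understates the change. Among the 5 that did not pass the filter, Hspb8 had means of 0.393, 0.999 and 0.973 FPKM, Hspb7 of 0.476, 0.681 and 0.849 FPKM and Hspb9 of 0.779, 0.609 and 0.600 FPKM, without a test.

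The DNAJ families span several compartments, and their counts include the members of the ER and mitochondria described above. With miR-144 the 24 DNAJC genes tested gave 11 higher and 6 lower calls (45.8% and 25%). With miR-451a they gave 9 and 5 (37.5% and 20.8%). The 9 DNAJB genes gave 3 and 3 calls (33.3% each), and 2 and 3 (22.2% and 33.3%). The 3 DNAJA genes gave 1 and 2 in each comparison. For all genes these shares were 47.1% and 20.1% with miR-144, and 48.1% and 20.3% with miR-451a. Those of DNAJC for miR-144 were close to them. After median centring the DNAJC counts were 5 and 9, and 5 and 8. The DNAJB counts were then 2 and 6, and 2 and 4, and the DNAJA counts 0 and 2 in each. Over all 11419 genes so centred, 3512 were higher and 3511 lower, and 3577 and 3636. Dnajc7 (TPR2), which links HSP70 and HSP90, rose, from 16.6, 18.0, 17.4, 16.6 and 18.1 FPKM in control TAMs to 23.8, 24.0, 23.2, 23.9 and 23.0 FPKM for miR-144 and 25.3, 24.5, 24.0, 23.1 and 22.4 FPKM for miR-451a. The groups were wide apart (log2 difference 0.42 ± 0.04 and 0.44 ± 0.04, adjusted p = 5.72e-08 and 3.56e-08). Dnajc28 had means of 2.12, 2.89 and 3.02 FPKM (0.32 ± 0.06 and 0.37 ± 0.06, the first not called after quantile normalization), and the endosomal Dnajc13 (RME-8) of 13.8, 17.0 and 17.0 FPKM (0.28 and 0.29). Dnajc9, a histone chaperone, was also higher (3.80, 4.84 and 4.92 FPKM). Dnajc21, needed for assembly of the large ribosomal subunit, was lower (3.61, 2.69 and 2.64 FPKM, -0.32 and -0.34).

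The other J proteins changed by less. Dnajc24, Dnajc15 and Dnajc18 were higher and Dnajc16 and Dnajc11, the latter of the mitochondria, were lower in both comparisons as deposited, by 0.11 to 0.28 on the log2 scale, but Dnajc18 and Dnajc24 were not called after median centring, nor Dnajc11 on the TPM scale. Dnajc2 and Dnajc30, with Dnajc5 (the cysteine string protein of secretory vesicles) and Dnajc27, were called higher and Dnajc25 lower for miR-144, while Dnajc4 was called higher for miR-451a, and for none of these 6 did the miRNA groups differ from each other by an adjusted p under 0.05. None of the 4 higher calls for miR-144 held after median centring or quantile normalization, and each was lost when certain single samples were left out. The call of Dnajc25 was lost on the TPM scale, and that of Dnajc4 was lost after median centring. Calls in the other comparison were gained for Dnajc25 after median centring, and for Dnajc2, Dnajc4, Dnajc5, Dnajc27 and Dnajc30 on the TPM scale. Dnajb2, Dnajb5, Dnajc8, Dnajc12 and Dnajc17 passed the test in neither comparison as deposited, but after median centring Dnajb2 and Dnajb5 were lower for miR-144 and Dnajc12 for both miRNAs, and Dnajc17 was called for miR-451a on the TPM scale.

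Dnajc14, an ER-associated J protein, showed the most uneven values of the DNAJC genes tested in control and miR-451a TAMs. Its coefficient of variation was 27.6% and 26.2% there, but 3.31% in miR-144 TAMs. It was at 11.1, 6.24, 6.83, 6.44 and 6.54 FPKM in control TAMs, at 7.07, 7.44, 7.65, 7.69 and 7.41 FPKM in miR-144 TAMs, and at 13.2, 7.13, 7.60, 11.2 and 11.8 FPKM in miR-451a TAMs. The miR-451a samples fell into a lower pair and an upper 3, and control sample 1 lay close to the upper ones. Its difference for miR-451a, 0.40 ± 0.16 (adjusted p = 0.0364), was lost without any one of 7 samples, with adjusted p of 0.0684 to 0.101, and also after median centring (adjusted p = 0.175), after quantile normalization, without the filter and with 2 groups per fit.

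Among the DNAJA and DNAJB genes of the cytosol, Dnajb4 rose (1.50, 2.19 and 2.21 FPKM, log2 difference 0.35 ± 0.05 and 0.36 ± 0.05, no overlap), and Dnajb6, known to hold back aggregation of polyglutamine proteins, fell (13.7, 12.4 and 11.9 FPKM, -0.14 and -0.19, the first not called on the TPM scale). Dnaja1 and Dnaja2, which feed Hspa8, went in opposite directions as deposited. Dnaja1 was at 12.6, 13.1, 11.4, 12.2 and 12.3 FPKM in control TAMs, at 12.4, 10.5, 10.8, 10.9 and 12.2 FPKM in miR-144 TAMs, and at 10.5, 10.4, 9.92, 10.5 and 10.4 FPKM in miR-451a TAMs. The miR-451a samples lay below control and the miR-144 samples overlapped with it (-0.11 ± 0.05, adjusted p = 0.0472, and -0.23 ± 0.05, adjusted p = 4.43e-04), and the first call was lost without any one of 7 samples and after rescaling to TPM. Dnaja2 had means of 27.2, 31.1 and 30.4 FPKM (0.19 and 0.16), but after median centring it was not called.

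Cofactors of the chaperones went both ways. Of 13 HSP90 cofactors 8 were higher in each comparison (61.5%, beside 47.1% and 48.1% of all genes). Lower calls numbered 1 for miR-144 (7.69%, beside 20.1% of all genes) and 2 for miR-451a (15.4%, beside 20.3%). The medians of the 13 cofactors (0.16 and 0.14) were near those of all genes. After median centring 2 and 1 of the cofactors were higher and 4 in each were lower. That share of lower calls was close to that of all genes so centred. Cdc37, which loads kinases onto HSP90, had means of 18.2, 21.1 and 21.3 FPKM (log2 difference 0.21 and 0.22), and Trap1, the mitochondrial HSP90, was the member lower in both comparisons (25.1, 21.1 and 21.1 FPKM, -0.24 and -0.23). Of the 8 subunits of the TRiC chaperonin 3 were higher in each comparison and 1 was lower with miR-451a (37.5% higher, against 47.1% and 48.1% of all genes), but after median centring 4 and 5 were lower, beside 3511 and 3636 of all 11419 genes. Of 16 HSP70 cofactors 2 were higher in each comparison, and 7 and 8 were lower (43.8% and 50%, against 20.1% and 20.3% of all genes). After median centring 11 and 10 were lower, beside the same 3511 and 3636 of all 11419 genes. The higher ones were Bag2 and Hscb, a J protein of iron-sulfur cluster assembly (11.1, 18.0 and 19.6 FPKM).

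**Figure D5:**
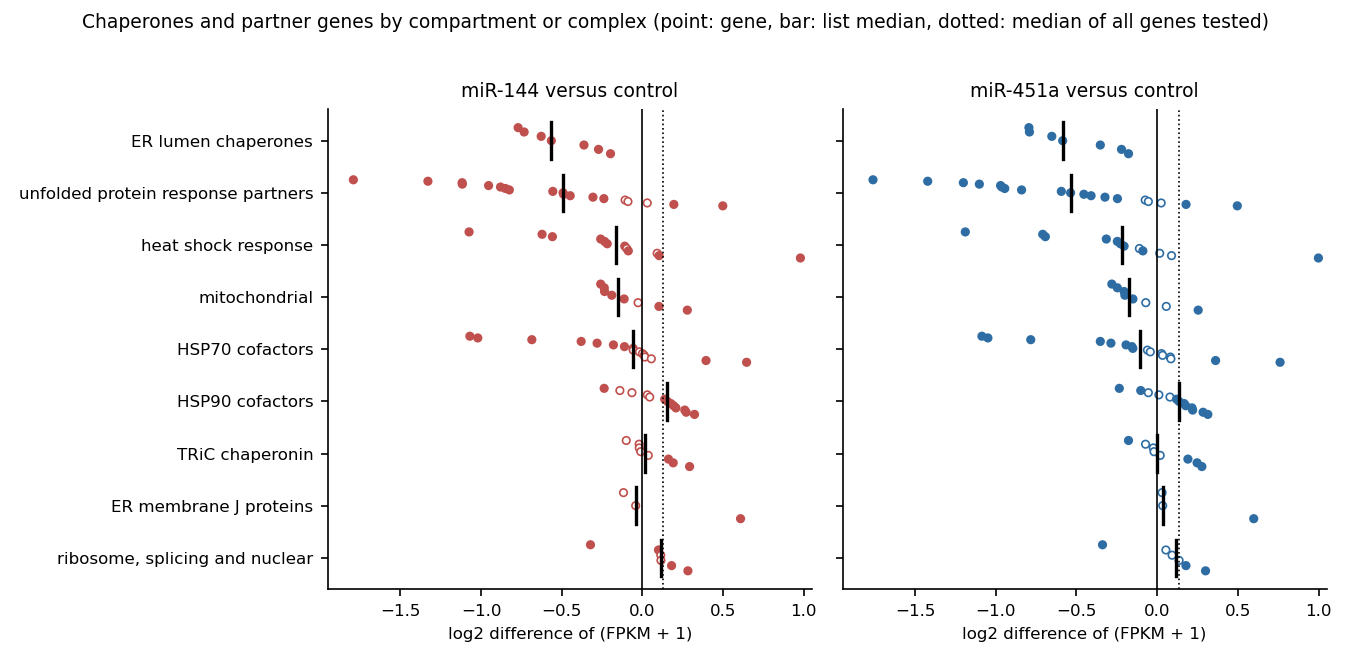
Log2 difference of (FPKM + 1) from control for each gene of 9 lists, miR-144 on the left and miR-451a on the right, with filled points for an adjusted p under 0.05, black bars for list medians and dotted lines for the median of all genes tested. The lists of ER lumen chaperones and unfolded protein response partners have medians between -0.49 and -0.59, and that of the HSP90 cofactors lies at the dotted line.

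TAMs of the miR-451a and miR-144 groups were also compared with each other. No chaperone and none of the 11419 genes passed the test (0.0% called by limma), and at an unadjusted p under 0.05 there were 5 of 55 chaperones (9.09%) and 596 of all genes (5.22%). The smallest p belonged to Dnajb11 (log2 difference -0.09 ± 0.03, adjusted p = 0.827), whose miR-451a samples all lay below the miR-144 samples. Dnaja1 (-0.12 ± 0.05, adjusted p = 0.946) and Hspa5 (-0.06 ± 0.02, adjusted p = 0.946) followed, also without overlap.

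The median spread of the chaperones within a group was smaller than that of all genes tested, although genes were not matched for level. The median coefficient of variation of the 55 genes was 5.42% in control TAMs, 4.84% in miR-144 TAMs and 5.72% in miR-451a TAMs, against 7.06%, 7.53% and 7.60% over all genes tested. Hspa5 had the lowest of the chaperones in miR-144 TAMs (1.15%) and Dnajb11 in miR-451a TAMs (1.08%). Hspa1b had the highest in control and miR-144 TAMs (28.0% and 26.4%).

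The 17 genes that did not pass the filter ranged from 0 to 1.43 FPKM in single samples. They were Hspa1l, Hspa12a, Hspa12b, Hspb2, Hspb3, Hspb7, Hspb8, Hspb9, Dnaja4, Dnajb3, Dnajb7, Dnajb8, Dnajb13, Dnajc5b, Dnajc5g, Dnajc6 and Dnajc22. Of these, 7 stayed under 0.1 FPKM in every sample, and Dnajc5b and Dnajc5g were listed at 0 throughout. Hspa1l, which lies beside Hspa1a and Hspa1b, had means of 0.951, 0.645 and 0.577 FPKM.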

How the data were processed

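TAMs were isolated by FACS and their RNA was sequenced on an Illumina HiSeq instrument. The authors deposited 1 table of FPKM per gene and sample, a value already divided by transcript length and mapped fragments. The submitters' processing notes name FastQC 0.11.2, STAR and StringTie, and the genome build and annotation are not given in the sources used here. Groups and replicate numbers came from the labels, which name no batch.

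The chaperone genes, the gene lists and the rule for named genes were chosen with earlier results of these data known, so no list was tested as a set. Named genes were 20 fixed members, the 5 that rose most and the 5 that fell most against control among called genes without overlap, the 3 smallest p between the miRNA groups, and the member nearest to the threshold on each side. Other genes were named from the lists, and the remaining members given with values were chosen after their values were seen.

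On log2(FPKM + 1), limma 3.58.1 in R 4.3.3 was fitted with a mean-variance trend to 3 group means for the 11419 genes that averaged 1 FPKM or more, p-values were adjusted over all of them by Benjamini-Hochberg, and the threshold was 0.05. The script was tested on simulated data. Depth was estimated from steps of low values in genes with a transcript of at least 1000 bp, but at most 50.5% of low values lay on a step (10% by chance), so whole reads could not be had and no count test was run. Coordinates are from GENCODE M21, which holds all 72 identifiers, and shared sequence is the percent of 50-base stretches found in other genes. Results were recomputed with a pseudocount of 0.1, no filter or 5 FPKM, 3 scalings (median centring, quantile normalization and TPM), a replicate block, no trend, 2 groups per fit, a minimum log2 difference of 1 and each sample left out. Other steps used Python 3.11.15, numpy 2.4.6, pandas 2.3.3 and matplotlib 3.10.9.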

Additional observations from a re-analysis of the deposited data

Results flagged for a closer look

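The named chaperones gave 84 sets of 5 samples, and in 7 of them the highest or lowest sample stood apart from the other 4 by Dixon's ratio (over 0.71), where chance gives about 1 in 20, or 4.2. Replicate 4 of miR-451a was the highest for Hspa8 (284 FPKM, next 214), Hsp90aa1 (36.6 FPKM, next 32.6) and Hsph1 (5.18 FPKM, next 4.80). Replicate 3 of miR-451a was the lowest for Dnaja1 (9.92 FPKM, next 10.4), replicate 1 of control the highest for Dnajc14 (11.1 FPKM, next 6.83), replicate 3 of miR-144 the highest for Dnajc3 (22.5 FPKM, next 21.3) and replicate 4 of miR-144 the lowest for Hspa4l (3.01 FPKM, next 3.51).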

How the results depend on the processing

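Counts of called chaperones changed by more than 1.5 times under these settings. With a minimum mean of 5 FPKM, where fewer genes are tested, 27 were called for miR-144, with 9 higher, and 8 were higher for miR-451a. Median centring left 9 higher calls in each comparison and quantile normalization 10 in each. A minimum log2 difference of 1 left 1 call for each miRNA, with 0 higher and 1 lower (Hspa1a). Leaving out each sample gave 37 to 40 calls for miR-144, with 15 to 19 higher and 20 to 22 lower, 38 to 41 for miR-451a, with 16 to 18 higher and 22 to 23 lower, and 0 between the miRNA groups.

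Direction changed for some small log2 differences. After median centring these were Dnajb1 (-0.0305 for miR-144, -0.0554 for miR-451a), Hspa8 (-0.0424 and -0.1289), Dnajc14 for miR-144 (-0.1013), and between the miRNA groups Dnajb4 (-0.0008) and Dnajb9 (-0.0007). After quantile normalization they were Dnajb1 (-0.0148 and -0.0358), Dnajc14 for miR-144 (-0.0965), Hsp90ab1 (0.158 and 0.1379, both past the threshold) and Dnajb4 between the miRNA groups (-0.0015). After rescaling to TPM they were Hspa4 for miR-144 (0.0118), and between the miRNA groups Dnajb14 (0.0009) and Hsp90ab1 (0.0106). With samples left out, Dnajc14 for miR-144 ran from -0.0146 to 0.1698 and Hspa8 for miR-451a from -0.0709 to 0.0498. Between the miRNA groups the ranges were -0.0409 to 0.0186 for Dnajb1, -0.0298 to 0.0091 for Dnajb14, -0.0096 to 0.0448 for Dnajb4, -0.0272 to 0.0403 for Dnajb9, -0.0042 to 0.0379 for Dnajc7, -0.0137 to 0.0167 for Hsp90ab1, -0.051 to 0.0083 for Hspa4l, -0.0432 to 0.0911 for Hspb1, -0.0056 to 0.1342 for Hspb6, -0.01 to 0.063 for Hspd1 and -0.0141 to 0.0567 for Hspe1. The cause of these changes was not tested.

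Calls for miR-144 were lost without single samples for Dnaja1, Dnajb1 and Hsp90ab1 (3 samples, adjusted p of 0.0518 to 0.0545), and also for Dnajc2, Dnajc5, Dnajc27 and Dnajc30, and for miR-451a for Dnajc14. The replicate numbers of the labels are not described as pairs. Deviations of samples with the same number had a mean correlation of -0.0122 between miR-144 and control, 0.14 between miR-451a and control and 0.101 between the miRNA groups, and 1, 3 and 4 of 5 samples correlated best with their own number. With the replicate block 39 chaperones were called for miR-144, 40 for miR-451a and 0 between the miRNA groups. The block ended the miR-144 calls of Dnajb1 (adjusted p = 0.0529), Dnajc2 and Dnajc5. It added a lower call of Hspa4l for miR-451a (adjusted p = 0.0303).

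Limits are that FPKM is relative to all RNA of a sample, that 10 of the 55 genes share over 10% of their 50-base stretches with other genes, and that depth was estimated and not given.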
